A study of Caenorhabditis elegans with 9 samples.

Results

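The 67 genes described here encode subunits of the mitochondrial respiratory chain and of ATP synthase, with a few assembly factors. They were chosen by name alone: every gene that a probe set of the array names singly and whose symbol begins with nuo-, ndu, sdh, ucr-, cyc-, cox-, atp-, asb- or asg-, together with gas-1, lpd-5, mev-1 and isp-1. They are 67 of the 17118 genes that the array names singly, and 87 probe sets report them. Each gene is represented by its probe set with the highest mean level over all arrays. By complex they comprise 32 genes of complex I, 5 of complex II, 6 of complex III, 2 of cytochrome c, 7 of complex IV, 6 for the assembly of complex IV and 9 of ATP synthase.

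The respiratory chain sits in the inner mitochondrial membrane. Complex I takes electrons from NADH and complex II takes them from succinate, coenzyme Q carries them to complex III, and the small protein cytochrome c carries them on to complex IV, which passes them to oxygen. Complexes I, III and IV pump protons as they do so, and ATP synthase uses the returning protons to make ATP. In Caenorhabditis elegans the chain is known from mutants in nuo-6 and isp-1, which live long, and in gas-1 and mev-1, which are sensitive to oxygen.

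Messenger RNA was measured on 9 Affymetrix arrays, 3 for each of 3 groups of whole young adults, pelleted before extraction. Wild type was strain N2. Strain MT14769 carried prg-1(n4357) with prg-2(n4358), and strain SX9 carried prg-1(n4503) with prg-2(nDf57); both are named by their alleles below. prg-1 encodes a Piwi protein, a partner of the piRNAs of the germ line, and prg-2 resembles it closely. Each genotype was 1 strain, so anything else that differs between the strains moves with the genotype. No label says that replicates were separate cultures, so p-values measure the spread between these samples, which may be technical.

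Values below are levels on the log2 scale, and differences are differences of log2 levels. Array medians lay between 4.76 and 4.83, and the small number of arrays limits the precision. Against wild type, prg-1 differed by 0.75 (SE 0.53) and prg-2 by -0.35 (SE 0.18) in the mean of both strains. Where their probes lie relative to the mutated parts is not known here, so these levels check no label. Markers of muscle and intestine had mean levels above the median of all probe sets in 26 of 26 and 14 of 15 genes, those of neurons, germ line and sperm in 16 of 20, 24 of 30 and 32 of 39. Replicate 2 of wild type, replicate 3 of n4357 n4358 and replicate 1 of n4503 nDf57 stood apart in genes of the moulting cycle, whose mean lay at -0.42, -0.54 and -0.56 relative to the mean of all arrays, against 0.019 to 0.52 on the other 6. Results are given with all arrays and, for many of them, also without these 3.

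Of the 67 genes, 66 had a mean level above the median of all probe sets, 4.82. The exception was cyc-2.2, at 4.68. In the mean of both mutant strains against wild type, 54 genes stood above wild type and 13 below. The median difference was 0.10, against 0.020 over all 22548 probe sets, of which 56.5% stood above wild type. No gene passed an adjusted p of 0.05 (limma, Benjamini-Hochberg over all probe sets), nor did any probe set on the array (0% called). Without adjustment, p was under 0.05 for 3 genes above wild type, mev-1, sdhd-1 and sdha-2 (background 1.88%), and for 1 below, cyc-2.2 (background 1.73%). The balance differed between complexes. All 5, 6 and 7 genes of complexes II, III and IV stood above wild type, as did 8 of 9 of ATP synthase and 24 of 32 of complex I. The assembly genes of complex IV were split 3 and 3, and cytochrome c 1 and 1.

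**Figure D1:**
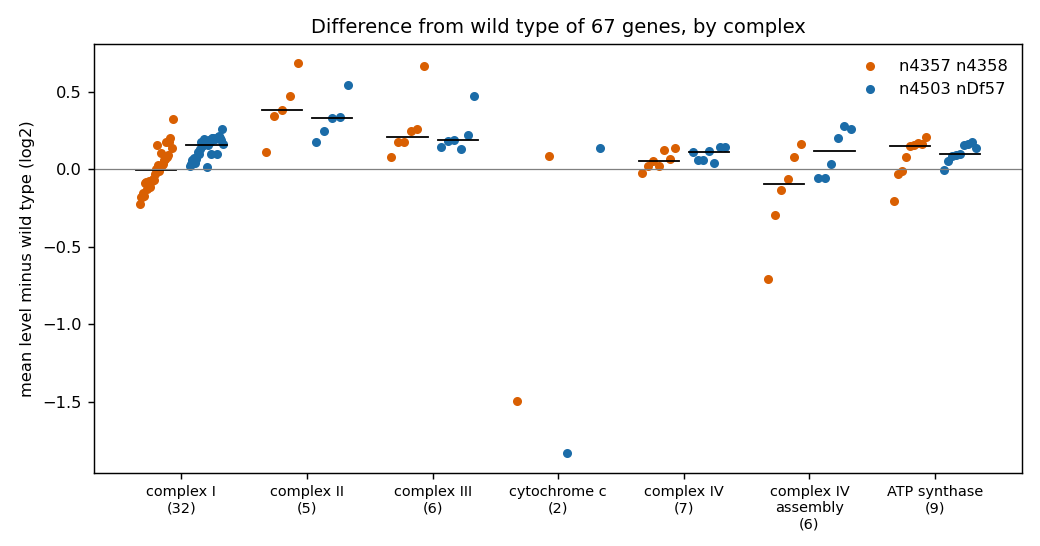
Difference of each gene's mean level from wild type (vertical axis, log2) for n4357 n4358 and n4503 nDf57, with genes grouped by complex. Complex II lies highest, with medians of 0.38 and 0.33, and cyc-2.2 lies far below the other genes at -1.49 and -1.83.

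Each strain was also set against the same wild-type arrays, and no gene passed in either (0% of all probe sets called). The smallest adjusted p (limma) among the 67 genes was 0.883 for n4357 n4358 and 0.99998 for n4503 nDf57. Over all probe sets it was 0.883 and 0.083. In n4357 n4358, 42 of 67 genes stood above wild type (background 54.1%) with a median of 0.059. That majority rested on single arrays: the count was 28 of 67 (median -0.010) without wild-type replicate 2 and 32 (median -0.011) without n4357 n4358 replicate 3. With the 3 arrays that stood apart left out it was 26 (median -0.068). Unadjusted p was under 0.05 for sdhd-1 and sdha-2 above wild type (background 1.96%) and for cyc-2.2 below (background 2.03%). All its arrays lay above all of wild type for 2 genes, nuo-1 and sdhd-1 (background 4.36%), and below for 6, namely asg-1, cox-17, cox-19, cyc-2.2, ndua-1 and ndua-2 (background 4.7%). In n4503 nDf57, 63 of 67 stood above (background 54.9%) with a median of 0.15, and 59 did without the 3 arrays (median 0.081). With all arrays, 0 genes above and 1 below, cyc-2.2, had an unadjusted p under 0.05 (background 1.72% and 1.11%). The arrays were separated upwards for 6 genes, cox-15, cox-6A, ndua-12, ndub-10, ndub-6 and nuo-2 (background 4.02%), and downwards for cyc-2.2 (background 2.56%).

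The arrays differed in level across the 67 genes. Wild-type replicate 2 held the lowest of the 9 values for 36 genes, where 11.5% of all probe sets had their lowest value on that array. The highest value lay on n4503 nDf57 replicate 2 for 18 genes (9.96% of all probe sets) and on n4357 n4358 replicate 3 for 17 (26.9%). Averaged over the genes, relative to each gene's own mean, the deviations were 0.018, -0.17 and -0.0078 in wild type. For n4357 n4358 they were -0.011, -0.083 and 0.042 and for n4503 nDf57 0.064, 0.10 and 0.040. The arrays of n4503 nDf57 thus all lay above those of wild type, and those of n4357 n4358 overlapped them. Without wild-type replicate 2, 47 of 67 genes stood above wild type in the mean of both strains, with a median of 0.034. The 3 genes above wild type at an unadjusted p under 0.05 became 0 without that array, and 10 without wild-type replicate 1. The share of all probe sets under that p with either array left out is not given here, so these counts have no background. Without the 3 arrays that stood apart 41 of 67 genes stood above wild type with a median of 0.019, as did 53.5% of all probe sets.

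**Figure D2:**
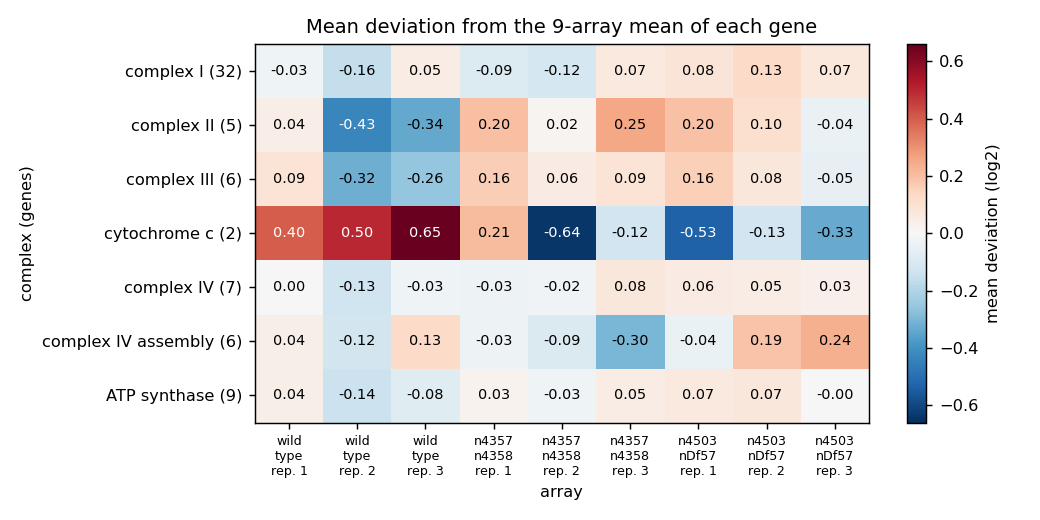
Mean deviation of the genes of each complex (rows) from each gene's 9-array mean, for every array (columns), in log2. Wild-type replicates 2 and 3 are low for complex II (-0.43 and -0.34) and complex III (-0.32 and -0.26), and cytochrome c is positive on all wild-type arrays.

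Cytochrome c is encoded by cyc-2.1 and cyc-2.2. The level of cyc-2.2 read 5.40, 5.97 and 5.98 log2 on the wild-type arrays, 5.16, 3.39 and 4.33 on those of n4357 n4358 and 3.63, 4.23 and 4.01 on those of n4503 nDf57. All 6 mutant arrays lay below all 3 wild-type arrays, as for 0.803% of all probe sets, and cyc-2.2 was the only one of the 67 genes separated in this way. Its mean level was 5.79 ± 0.33 in wild type (SD, n = 3), against 4.29 ± 0.88 and 3.96 ± 0.31 in the mutants, in the order above. The mean difference was -1.66 (SE 0.35) and its p ranked 21 of 22548. The mutant means lay below the median of all probe sets and the values carry no detection call, so no fold is given. The adjusted p was 0.999 (limma), so the difference did not pass, and over the alternatives it ran from 0.175 to 1. By strain the difference of cyc-2.2 was -1.49 (SE 0.40) for n4357 n4358 and -1.83 (SE 0.40) for n4503 nDf57. With single arrays left out the mean difference lay between -1.88 and -1.44.

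In whole animals fewer cells of a type and less RNA per cell cannot be told apart. Sperm markers also stood lower in the mutants, 33 of 39 measured of 50 listed, with 0 past the threshold. Their medians were -0.92 for n4357 n4358 and -1.35 for n4503 nDf57, or -1.16 and -1.55 without the 3 arrays that stood apart. In n4357 n4358 all arrays lay below all of wild type for 2 of the 39 (background 4.7%). In n4503 nDf57 they did for 12 (background 2.56%). The mean deviation of the sperm markers ran from 0.23 to 0.99 in wild type. It ran from -1.49 to 0.75 for n4357 n4358 and from -1.02 to 0.28 for n4503 nDf57, so the groups overlapped in this mean. With that mean as a covariate the difference of cyc-2.2 was -1.36, and with the mean of the moulting genes -1.64. The other gene, cyc-2.1, read 12.70, 12.32 and 12.62 log2 on the wild-type arrays, 12.56, 12.62 and 12.72 on those of n4357 n4358 and 12.61, 12.81 and 12.63 on those of n4503 nDf57. Its groups overlapped, with wild-type replicate 2 lowest, and the difference was 0.11 (SE 0.11). Both probe sets are of the kind designed to match 1 gene.

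**Figure D3:**
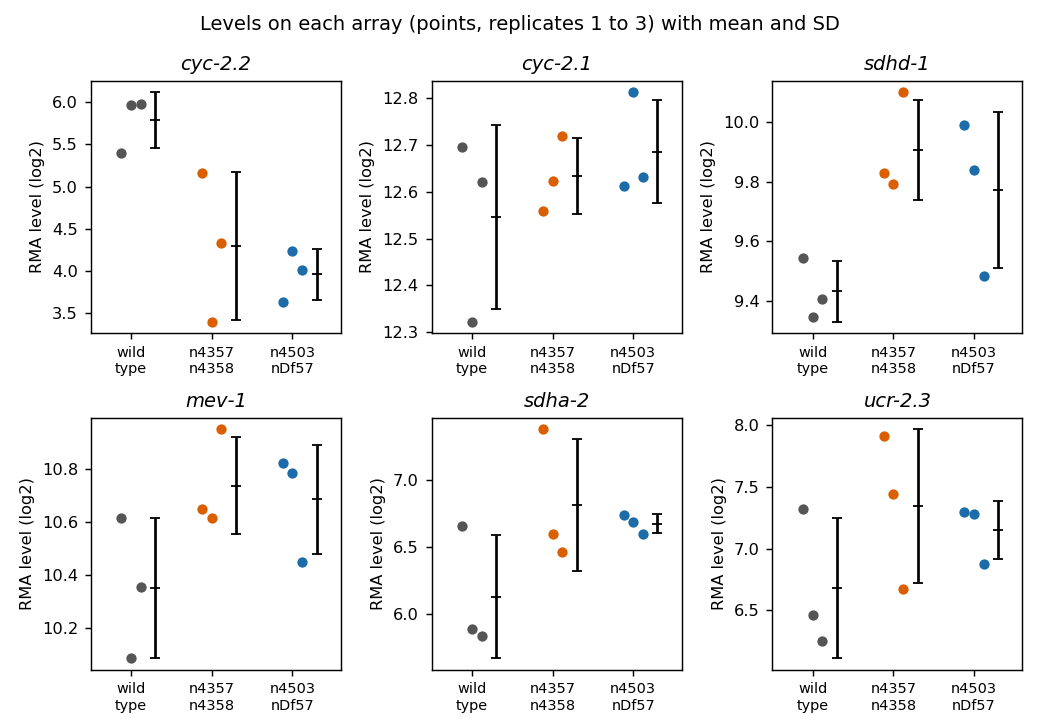
Levels (vertical axes, log2) of cyc-2.2, cyc-2.1, sdhd-1, mev-1, sdha-2 and ucr-2.3 on each array, with points for replicates and bars for the mean and SD of each group. Vertical axes differ between panels and do not start at 0. For cyc-2.2 the lowest wild-type array, 5.40, lies above the highest mutant array, 5.16, while in the other panels at least 1 mutant array lies within the wild-type range.

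Complex II, succinate dehydrogenase, joins the citric acid cycle to the chain. All 5 of its genes stood above wild type, with a median difference of 0.36, the highest of the complexes. Its membrane anchors are encoded by mev-1 and sdhd-1. sdhd-1 read 9.54, 9.35 and 9.40 log2 on the wild-type arrays, 9.83, 9.79 and 10.10 on those of n4357 n4358 and 9.99, 9.84 and 9.48 on those of n4503 nDf57. All arrays of n4357 n4358 lay above wild type, and only replicate 3 of n4503 nDf57 fell within its range. The mean difference of sdhd-1 was 0.41 (SE 0.13). By strain it was 0.47 (SE 0.15) for n4357 n4358 and 0.34 (SE 0.15) for n4503 nDf57. mev-1 read 10.61, 10.09 and 10.35 log2 on the wild-type arrays, 10.65, 10.61 and 10.95 on those of n4357 n4358 and 10.82, 10.78 and 10.45 on those of n4503 nDf57. Here wild-type replicate 1 reached the lower mutant arrays, and the difference was 0.36 (SE 0.15).

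The catalytic subunits of complex II bind succinate (sdha-1 and sdha-2) and carry iron-sulfur clusters (sdhb-1). sdhb-1 read 10.80, 10.40 and 10.47 log2 on the wild-type arrays, 10.93, 10.69 and 11.08 on those of n4357 n4358 and 10.91, 10.88 and 10.63 on those of n4503 nDf57, a difference of 0.29 (SE 0.13). A second probe set of sdhb-1 gave 0.34 (SE 0.14). Wild-type replicate 1 again lay among the mutant arrays. sdha-2 read 6.66, 5.89 and 5.84 log2 on the wild-type arrays, 7.38, 6.59 and 6.47 on those of n4357 n4358 and 6.74, 6.68 and 6.60 on those of n4503 nDf57. Its wild-type replicate 1 lay among the mutant arrays and the other wild-type arrays below them all. The difference of sdha-2 was 0.61 (SE 0.24) and that of its relative sdha-1 was 0.14 (SE 0.14). In the reference annotation ndua-13 of complex I is the direct neighbour of sdha-2, and it differed by 0.12 (SE 0.11).

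No complex II gene passed in any comparison (smallest adjusted p = 0.883, limma). The median of the complex became 0.46 without wild-type replicate 1, 0.23 without replicate 2 and 0.14 without the 3 arrays that stood apart. All 5 genes stood above wild type with any 1 wild-type array left out, and 4 did without those 3 arrays. The probe sets used for sdha-2, sdhb-1 and sdhd-1 may also detect related genes or transcripts. Without such probe sets 2 genes of complex II remained, both above wild type, with a median of 0.25. Muscle markers stood above wild type in 24 of 26 genes (median 0.24), and in 23 (median 0.17) without the 3 arrays that stood apart. Their mean deviation was 0.18, -0.44 and -0.18 in wild type, where that of complex II was 0.042, -0.43 and -0.34. For n4357 n4358 it was 0.22, 0.20 and -0.14, against 0.20, 0.018 and 0.25 for complex II, and for n4503 nDf57 -0.12, 0.15 and 0.13, against 0.20, 0.10 and -0.043. Both were lowest on wild-type replicate 2, while on n4357 n4358 replicate 3 and on n4503 nDf57 replicates 1 and 3 they had opposite signs. The part of muscle RNA in this result was not tested.

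Complex III passes electrons from coenzyme Q to cytochrome c. Its 6 genes all stood above wild type, with a median of 0.19. The Rieske iron-sulfur protein gene isp-1 read 11.96, 11.64 and 11.86 log2 on the wild-type arrays, 12.02, 11.96 and 12.22 on those of n4357 n4358 and 12.01, 11.98 and 11.86 on those of n4503 nDf57. Its difference was 0.19 (SE 0.10), and replicate 3 of n4503 nDf57 lay within the wild-type range. Cytochrome c1, from cyc-1, differed by 0.11 (SE 0.10) and the core protein gene ucr-1 by 0.18 (SE 0.094). The other core protein has 3 genes. ucr-2.1 and ucr-2.2 differed by 0.24 (SE 0.11) and 0.18 (SE 0.11). The third, ucr-2.3, read 7.32, 6.46 and 6.25 log2 on the wild-type arrays, 7.91, 7.45 and 6.67 on those of n4357 n4358 and 7.30, 7.28 and 6.88 on those of n4503 nDf57. Wild-type replicate 1 lay among the mutant arrays and the others below them, and the difference was 0.57 (SE 0.31). The median of complex III became 0.13 without wild-type replicate 2 and 0.070 without the 3 arrays that stood apart.

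**Figure D4:**
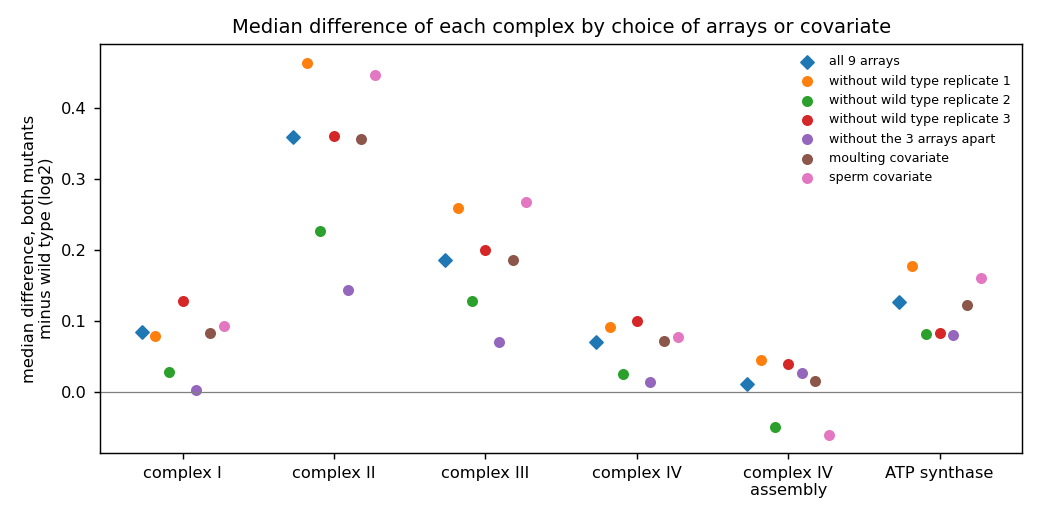
Median difference between both mutants and wild type (vertical axis, log2) of the genes of each complex, with all 9 arrays, with arrays left out, and with the mean of the moulting or the sperm genes as a covariate. Complex II is the highest in the settings drawn, from 0.14 without the 3 arrays that stood apart to 0.46, and the median of complex I is 0.0022 without those 3.

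Complex I oxidises NADH. In the mean of both strains its median difference was 0.084, within a range from -0.10 (nduv-3, SE 0.10) to 0.25 (nduf-11, SE 0.13). The 8 genes whose human counterparts form the catalytic core all stood above wild type, with a median of 0.13. Of the other 24 genes 16 did, with a median of 0.065. Without wild-type replicate 2 the count over all 32 became 20 and the median 0.028. The grouping by role was made after the values were seen. The core gene gas-1 read 9.92, 9.71 and 9.95 log2 on the wild-type arrays, 9.94, 9.94 and 10.11 on those of n4357 n4358 and 10.11, 10.34 and 9.92 on those of n4503 nDf57, a difference of 0.20 (SE 0.11). Its relative nduf-2.2 differed by 0.085 (SE 0.13), and the groups overlapped for both. nuo-1, which binds NADH, nuo-5 and nduf-7 differed by 0.14 to 0.19, and nuo-2, ndus-8 and nduv-2 by 0.13, 0.047 and 0.031. Of the accessory genes, lpd-5 differed by 0.037 (SE 0.11) and nuo-6 by -0.0071 (SE 0.11).

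The strains took different values in complex I. In n4503 nDf57 all 32 genes stood above wild type, with a median of 0.16 and a range of 0.014 to 0.26. In n4357 n4358, 16 stood above and 16 below, with a median of -0.0032 and a range of -0.22 to 0.33. That even split did not hold without wild-type replicate 2, with 10 of 32 above (median -0.065), or without n4357 n4358 replicate 3, with 8 (median -0.060). Without the 3 arrays that stood apart, 7 of 32 stood above wild type in n4357 n4358 (median -0.12) and 29 in n4503 nDf57 (median 0.10). In the direct comparison of the strains, 27 of 32 were higher in n4503 nDf57 (background 50%) with a median of 0.16, against 0.00019 over all probe sets. No gene passed (smallest adjusted p = 0.977, limma, 0% of all probe sets called). Only nduc-2 had an unadjusted p under 0.05 (background 1.71% in this direction and 0.758% in the other). In 8 complex I genes all arrays of n4503 nDf57 lay above all of n4357 n4358 (background 3.37%), namely ndua-2, ndub-3, ndub-5, ndub-6, ndub-10, nduc-2, nduf-5 and nduv-2. Over all 67 genes they lay above in 10, with asg-1 and cox-11 added (background 3.37%), and below in 0 (background 2.12%).

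Of those 8 complex I genes 7 lie outside the core, as do 24 of all 32. nduc-2 read 10.62, 10.45 and 10.71 log2 on the wild-type arrays, 10.35, 10.34 and 10.56 on those of n4357 n4358 and 10.61, 10.64 and 10.75 on those of n4503 nDf57. The strains differed by 0.25 (SE 0.11), while wild type overlapped both. ndua-2 read 9.75, 9.84 and 9.92 log2 on the wild-type arrays, 9.66, 9.61 and 9.71 on those of n4357 n4358 and 9.75, 9.89 and 10.05 on those of n4503 nDf57. Here the strains differed by 0.24 (SE 0.11), and all arrays of n4357 n4358 lay below wild type. nduf-5 read 10.36, 10.40 and 10.69 log2 on the wild-type arrays, 10.37, 10.32 and 10.55 on those of n4357 n4358 and 10.60, 10.72 and 10.71 on those of n4503 nDf57, a difference between strains of 0.26 (SE 0.12). The core gene nduv-2 had the largest difference of complex I, 0.29 (SE 0.13). Lower in n4503 nDf57 were nduf-11, nduf-2.2, nuo-1, nuo-5 and nduf-9, by -0.16 to -0.005. The median between strains was 0.078 over the 8 core genes and 0.18 over the other 24.

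Replicates 1 and 2 of n4357 n4358 were its low arrays in complex I, with mean deviations of -0.092, -0.12 and 0.066 for replicates 1 to 3. Without the 3 arrays that stood apart, 29 of the 32 genes were higher in n4503 nDf57 with a median of 0.23, against -0.008 over all probe sets, and 0 passed. Of these genes 12 then had an unadjusted p under 0.05, against 1 with all arrays. The share of all probe sets under that p without the 3 arrays is not given here, so no result is read from the count. Germ line markers had the opposite sign between strains, with 6 of 30 higher and a median of -0.18. Without those 3 arrays 3 of 30 were higher, with a median of -0.32. For replicates 1 to 3 their mean deviation was 0.36, 0.16 and -0.22 for n4357 n4358. For n4503 nDf57 it was 0.083, 0.0072 and -0.17. Neuron markers were higher in n4503 nDf57 in 16 of 20, with a median of 0.073. The part of germ line or neuronal RNA in the result was not tested.

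**Figure D5:**
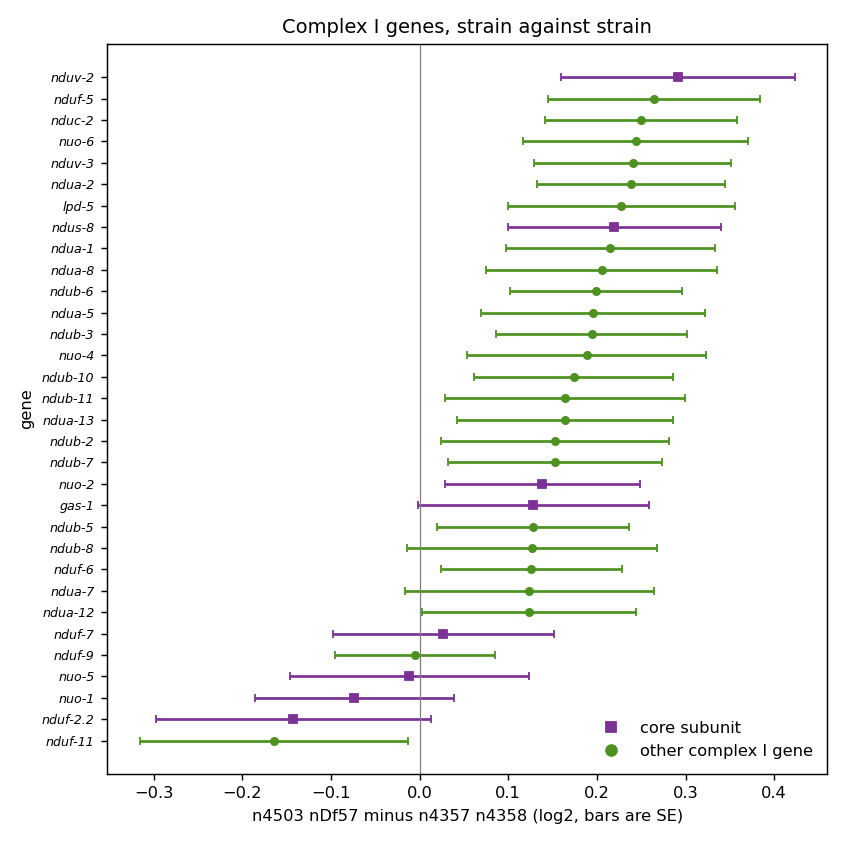
Difference between n4503 nDf57 and n4357 n4358 (horizontal axis, log2, bars are SE) for the 32 genes of complex I, with core subunits marked apart from the others. The differences run from -0.16 for nduf-11 to 0.29 for nduv-2, and 27 of 32 lie above 0.

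Complex IV, cytochrome c oxidase, hands the electrons to oxygen. Its 7 nuclear subunit genes differed by 0.042 to 0.14 in the mean of both strains, with a median of 0.070. cox-5A read 12.20, 12.06 and 12.12 log2 on the wild-type arrays, 12.21, 12.15 and 12.18 on those of n4357 n4358 and 12.12, 12.25 and 12.19 on those of n4503 nDf57. The groups overlapped, and the difference was 0.057 (SE 0.074). cox-5B differed by 0.042 (SE 0.085). cox-6A, cox-6B and cox-6C, which encode distinct subunits, differed by 0.070, 0.11 and 0.042, cox-7C by 0.084 and cox-4 by 0.14 (SE 0.086). In the reference annotation cox-6B and nduc-2 of complex I are direct neighbours, and they differed by 0.11 and -0.048. Without the 3 arrays that stood apart the median of complex IV was 0.014, with 5 of 7 genes above wild type. The subunits that mitochondrial DNA encodes were not analysed here.

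Of the genes that build complex IV, cox-10 and cox-15 make its haem, cox-11, cox-17 and cox-19 serve copper delivery, and cox-18 inserts a subunit into the membrane. cox-19 read 6.05, 6.36 and 6.26 log2 on the wild-type arrays, 6.04, 5.73 and 4.77 on those of n4357 n4358 and 5.42, 6.30 and 6.78 on those of n4503 nDf57. All arrays of n4357 n4358 lay below wild type, and those of n4503 nDf57 lay on both sides. The difference of cox-19 was -0.71 (SE 0.39) for n4357 n4358 and -0.057 for n4503 nDf57. Their mean, -0.38 (SE 0.34), became 0.061 without the 3 arrays that stood apart. cox-17 read 7.24, 7.34 and 7.59 log2 on the wild-type arrays, 7.20, 6.91 and 7.16 on those of n4357 n4358 and 7.01, 7.43 and 7.55 on those of n4503 nDf57, and its difference in n4357 n4358 was -0.30 (SE 0.17). cox-10, cox-11, cox-15 and cox-18 had mean differences of -0.046, 0.070, 0.18 and 0.21. All 6 genes were higher in n4503 nDf57 than in n4357 n4358, by 0.10 to 0.65, and 5 were without the 3 arrays.

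ATP synthase had a median difference of 0.13, with 8 of 9 genes above wild type. The catalytic subunit gene atp-2 read 12.29, 11.93 and 12.11 log2 on the wild-type arrays, 12.23, 12.18 and 12.15 on those of n4357 n4358 and 12.10, 12.31 and 12.20 on those of n4503 nDf57. The groups overlapped, and its difference was 0.086 (SE 0.10). atp-1, atp-3, atp-4 and atp-5, which encode the alpha subunit and parts of the stalk, differed by 0.13 to 0.17. Subunit b has a gene known from the soma, asb-2, and one known from the germ line, asb-1. asb-2 read 11.43, 11.18 and 11.13 log2 on the wild-type arrays, 11.39, 11.39 and 11.57 on those of n4357 n4358 and 11.49, 11.37 and 11.29 on those of n4503 nDf57, a difference of 0.17 (SE 0.10). asb-1 read 8.48, 8.29 and 8.40 log2 on the wild-type arrays, 8.63, 8.37 and 8.07 on those of n4357 n4358 and 8.58, 8.34 and 8.41 on those of n4503 nDf57, a difference of 0.012 (SE 0.13). For subunit g, asg-1 differed by -0.10 (SE 0.088) and asg-2 by 0.037 (SE 0.076). asg-1 read 10.92, 10.85 and 11.13 log2 on the wild-type arrays, 10.77, 10.74 and 10.78 on those of n4357 n4358 and 10.88, 10.96 and 11.05 on those of n4503 nDf57, so that all arrays of n4357 n4358 lay below those of both other groups. With the probe sets used, no gene of ATP synthase had an unadjusted p under 0.05 in any comparison. A second probe set of atp-4 differed by 0.29 (SE 0.12) in the mean of both strains. With probe sets that may also detect related genes or transcripts removed, 1 of 5 ATP synthase genes stood above wild type at that p in this mean. This is not a separate observation, since that second probe set then represents atp-4. The share of all probe sets under that p in this setting is not given here.

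Several probe sets were present for 18 of the 67 genes. In 16 of these all probe sets gave the same sign in the mean of both strains, and the gap between their differences had a median of 0.058. The exceptions were atp-5 and cox-5A, with gaps of 0.13 and 0.12. For 34 of the 67 genes the probe set used may also detect related genes or transcripts. With such probe sets removed, 37 genes could be measured, of which 26 stood above wild type with a median of 0.070.

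Other mitochondrial genes were read from lists for comparison. Enzymes of pyruvate dehydrogenase and the citric acid cycle stood above wild type in 17 of 20 members with a median of 0.24. The citrate synthase gene cts-1 read 11.50, 11.01 and 11.36 log2 on the wild-type arrays, 11.59, 11.50 and 11.72 on those of n4357 n4358 and 11.66, 11.70 and 11.52 on those of n4503 nDf57, a difference of 0.32 (SE 0.12). Its wild-type replicate 1 reached the lowest mutant array. Unadjusted p was under 0.05 for 7 of these 20 genes, all above wild type (background 1.88%). Without the 3 arrays that stood apart their median was 0.10. Coenzyme Q synthesis had 6 of 7 genes above wild type (median 0.13), with coq-3 at 0.24 (SE 0.12). Without wild-type replicate 2 it had 2 of 7 (median -0.0038). By strain the count was 3 of 7 in n4357 n4358 (median -0.0057) and 6 of 7 in n4503 nDf57 (median 0.24). Inner membrane carriers had 6 of 9 (median 0.10). Among them mcu-1, the pore of the mitochondrial calcium uniporter, read 6.87, 6.72 and 6.78 log2 on the wild-type arrays, 6.98, 7.19 and 7.16 on those of n4357 n4358 and 7.50, 7.32 and 7.13 on those of n4503 nDf57. All mutant arrays of mcu-1 lay above wild type, as for 1.05% of all probe sets, and the difference was 0.42 (SE 0.10) with a limma adjusted p of 0.999.

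Genes of the mitochondrial unfolded protein response stood above wild type in 5 of 11 (median -0.042). Without the 3 arrays that stood apart they did in 7 (median 0.044). The chaperone genes hsp-6 and hsp-60 differed by 0.13 (SE 0.18) and 0.38 (SE 0.28), while their wild-type arrays ran from 9.48 to 10.22 and from 8.78 to 9.96. The glycolytic gene gpd-2, also on that list, differed by 0.31 (SE 0.094). Protein import had 10 of 19 above wild type (median 0.0019), with timm-23 of the import channel at 0.25 (SE 0.13). Without those 3 arrays it had 8 (median -0.017). Assembly factors outside the 67 genes had 4 of 11 (median -0.073), with sft-1 at 0.18 (SE 0.11). Fusion, fission and cristae genes had 12 of 15 (median 0.069), with chch-3 at 0.30 (SE 0.12). Antioxidant enzymes had 9 of 14 (median 0.019), with trxr-1, a thioredoxin reductase, at -0.34 (SE 0.17). Without those 3 arrays they had 5 (median -0.033). Between the strains, import genes were higher in n4503 nDf57 in 19 of 19 (median 0.28), unfolded protein response genes in 11 of 11 (0.23) and assembly factors in 10 of 11 (0.22). Without the 3 arrays that stood apart these counts were 19, 9 and 10. Citric acid cycle genes were split 10 and 10 there, and 0 genes of these lists passed after adjustment.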

How the data were processed

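Messenger RNA of whole animals was labelled with a 3' expression kit and hybridised to Affymetrix arrays. The deposited values are log2 levels per probe set. RMA and limma are named, per the submitters' processing notes, and their versions are unknown here. RMA equalises the arrays, so a shift common to most genes would be removed.

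The array has 22625 probe sets, of which 77 controls were left out and 22548 tested. Of these 20766 name 1 gene, 887 several and 895 none. All 67 genes matched the reference gene table (assembly WBcel235), which gave gene order only. All 9 arrays entered 1 limma fit (limma 3.58.1, R 4.3.3) with a mean per group and 6 residual and 2.38 prior degrees of freedom. The Benjamini-Hochberg adjustment ran over all probe sets tested, and 0.05 was the threshold. The mean of both mutants is unweighted. All 67 genes passed the filter on dim probe sets used as an alternative. The fit was tested on simulated data. Tables and figures used Python 3.11.15 and matplotlib 3.10.9.

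The genes, lists and comparisons were chosen with earlier results of these data known. Genes named by rule were well-studied members, those with a close relative in the set, those with separated groups, the highest and lowest of each complex, and the 3 smallest p in each other comparison. Others were named after their values were seen. Same-numbered arrays did not deviate together (correlations of -0.60 to 0.40, 3 of 9 pairs over 0.1), so no block was used. Alternatives were a replicate block, cyclic loess, median centring, a filter below the 30th percentile, trend and robust variances, array weights, only the arrays compared, fewer arrays, other probe set choices, covariates and stricter thresholds.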

Additional observations from a re-analysis of the deposited data

How the results depend on the processing

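As in the analysis above, 0 of the 67 genes passed in any comparison under the alternatives run. With array weights other probe sets of the array passed, 2 in the mean of both strains, 4 in n4357 n4358, 37 in n4503 nDf57 and 0.63% of all probe sets between the strains. Genes of the 67 that stood higher at an unadjusted p under 0.05 then numbered 6, 3, 23 and 30 in that order, against 3, 2, 0 and 1 without weights. The share of all probe sets under that p with weights is not given here, so these counts have no background. The weight was 6.64 on n4503 nDf57 replicate 2 and 3.35 on n4357 n4358 replicate 2, against 0.15 to 1.44 on the other arrays. With weights 33 of 67 stood above wild type in n4357 n4358, against 42. With a replicate block 0 genes passed and the median difference was 0.10. The median of all genes in n4503 nDf57 ran from 0.076 to 0.18 when 1 array was left out. Leaving out the 3 arrays that stood apart was chosen after seeing the data. It gave medians of 0.019 in the mean of both strains, -0.068 in n4357 n4358 and 0.081 in n4503 nDf57. Complexes II and IV took 0.14 and 0.014. Without shared probe sets, which leaves fewer genes, ATP synthase took 0.037.

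Some differences from wild type changed sign. Without those 3 arrays these were -0.012 (asg-2), 0.061 (cox-19), -0.010 (cox-6A), -0.014 (cox-6C), -0.031 (cyc-1), -0.0019 (cyc-2.1), -0.036 (lpd-5) and -0.022 (sdha-1). asb-1 took -0.0023 with median centring, -0.017 with array weights and -0.00061 with the sperm covariate. asg-2 took -0.0056 with array weights and cox-5A -0.0047 as the mean of its probe sets. With the sperm covariate lpd-5 took -0.015 and nuo-6 0.0085. With 1 array left out, asb-1 ran from -0.056 to 0.084, atp-2 from -0.0018 to 0.18, lpd-5 from -0.061 to 0.15, nduf-2.2 from -0.012 to 0.16 and nuo-6 from -0.073 to 0.10. The cause of these changes was not tested. The other 769 gene values and 216 medians computed under alternatives kept their direction or moved by less than the spread between replicates.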

Other observations

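A gene outside the 67, timm-17B.2, named for a channel component of mitochondrial protein import, was chosen after its values were seen. timm-17B.2 read 7.06, 7.24 and 6.93 log2 on the wild-type arrays, 6.84, 11.07 and 6.67 on those of n4357 n4358 and 10.90, 6.88 and 11.11 on those of n4503 nDf57. Within both mutant strains its arrays fell into a high and a low level, and the low arrays lay near wild type. Its mean difference was 1.84 (SE 1.19), with a limma adjusted p of 0.999. Another gene chosen in this way, ubl-5 of the mitochondrial unfolded protein response, read 7.96, 8.52 and 7.83 log2 on the wild-type arrays, 7.68, 7.32 and 5.24 on those of n4357 n4358 and 5.56, 7.77 and 8.48 on those of n4503 nDf57. Its lowest values lay on n4357 n4358 replicate 3 and n4503 nDf57 replicate 1, which also had low moulting genes.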
